A study of Mus musculus with 7 samples.

Results

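A set of 9 neutrophil genes was followed through a comparison of sorted megakaryocyte progenitors from young and old mice: the granule genes Ngp, Ltf, Lcn2, Cd177, Mmp8 and Mmp9, the neutrophil gene Retnlg, and the lysozyme genes Lyz1 and Lyz2. They were chosen by symbol from the 769 gene models of the authors' deposited table, and all 9 are in it, with 1 row each. Cells without lineage markers and Sca1, and with cKit, CD150 and CD41, were sorted from bone marrow. The 3 young libraries came from mice aged 3 months and the 4 old libraries from mice labelled 18 to 20 months, and the growth protocol gives 20 months for the old ones. All mice were offspring of Flt3-cre and mTmG parents, in which a cell turns from red Tomato to green GFP after Cre has acted in it or in a forebear, although the series' design text calls them WT. Cells of the gate were collected as Tom+ or GFP+. The 3 young titles begin with mkpgy, 2 old titles with mkpgo and 2 with mkpto. What the letters g and t mark is not explained, but g stands in titles of both ages and t only in old ones, so the old mean, if it covers all 4, pools 2 g and 2 t libraries against 3 g libraries. Part of a difference by age and a difference between g and t cannot be told apart in the group means. The strain label is C57BL/6 for 6 libraries and C57BL/7 for 1 old library. The labels do not tie each library to its own mice, so the spread between libraries behind the p-values may be technical. The authors' analysis held 14 samples, so libraries outside these groups may also have entered the estimate of spread.

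Neutrophils store their proteins in granules that form in sequence as the cell matures. Primary granules come first and carry myeloperoxidase and serine proteases, secondary or specific granules follow with lactoferrin and lipocalin, and tertiary granules come last with gelatinase. The genes of the later granules are switched on together in maturing neutrophil precursors under C/EBP family transcription factors, and lysozyme is made by neutrophils and by monocytes and macrophages alike. Megakaryocyte progenitors give rise to megakaryocytes and platelets, a different branch of the myeloid lineage.

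All 9 genes were higher in the old group, and 8 of them by at least 19.0-fold in the deposited means. The folds of the genes with the lowest young means are the least certain: with a pseudocount of 10 the log2 ratio of Lyz1 was 2.10 in place of 4.25 and that of Mmp9 3.83 in place of 6.19. Ngp and Ltf had the highest old means of all listed gene models, 36140 and 19916 normalized counts, not corrected for transcript length. All 9 passed the call limit of the authors' deposited table, an adjusted p under 0.05, where 302 of 11778 tested gene models, or 2.56%, were called higher, and 487, or 4.13%, in either direction. The table holds gene models with an adjusted p below 0.1, and the genes were chosen with its results known, so their count is a description and no independent evidence of a direction. Values exist as group means, with no value per library, so whether single libraries of the groups overlap cannot be read from them. Errors are given as the authors' standard error (SE) of the log2 fold change and as the 95% Wald interval that follows from it. In bulk RNA, a larger number of cells that express a gene and more of its RNA per cell cannot be told apart.

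The sequences before the transcription starts of 6 of the genes are shown because the C/EBP motif is known from promoters of late granule genes and because Lyz1 and Lyz2 are neighbouring copies with unequal levels. Each is the 250 bases before the RefSeq start on GRCm38.p6, the mouse assembly also called mm10, read 5' to 3' in the direction of the gene, with matches to TTNNGNAA on either strand in capitals.
Ngp, chr9:110419558-110419807, plus strand: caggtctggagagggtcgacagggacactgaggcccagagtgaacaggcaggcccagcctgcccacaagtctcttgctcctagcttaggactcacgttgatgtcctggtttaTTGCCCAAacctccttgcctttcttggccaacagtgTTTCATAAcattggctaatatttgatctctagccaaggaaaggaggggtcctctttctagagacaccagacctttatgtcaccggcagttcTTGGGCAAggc
Ltf, chr9:111019042-111019291, plus strand: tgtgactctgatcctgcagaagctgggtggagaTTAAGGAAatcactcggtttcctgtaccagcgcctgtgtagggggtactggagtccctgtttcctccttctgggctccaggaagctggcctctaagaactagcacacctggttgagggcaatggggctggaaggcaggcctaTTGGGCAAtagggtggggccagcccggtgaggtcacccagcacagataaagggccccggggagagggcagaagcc
Lcn2, chr2:32387740-32387989, minus strand: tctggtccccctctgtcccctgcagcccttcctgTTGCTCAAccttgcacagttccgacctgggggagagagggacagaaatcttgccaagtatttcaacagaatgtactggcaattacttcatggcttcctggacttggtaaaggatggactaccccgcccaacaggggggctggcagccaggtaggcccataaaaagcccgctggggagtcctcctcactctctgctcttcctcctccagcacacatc
Mmp8, chr9:7558179-7558428, plus strand: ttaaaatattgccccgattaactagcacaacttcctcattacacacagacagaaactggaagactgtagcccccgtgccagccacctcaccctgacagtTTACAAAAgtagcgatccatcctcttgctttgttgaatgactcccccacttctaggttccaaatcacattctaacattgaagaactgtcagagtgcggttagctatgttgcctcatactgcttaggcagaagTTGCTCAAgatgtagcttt
Lyz2, chr10:117282273-117282522, minus strand: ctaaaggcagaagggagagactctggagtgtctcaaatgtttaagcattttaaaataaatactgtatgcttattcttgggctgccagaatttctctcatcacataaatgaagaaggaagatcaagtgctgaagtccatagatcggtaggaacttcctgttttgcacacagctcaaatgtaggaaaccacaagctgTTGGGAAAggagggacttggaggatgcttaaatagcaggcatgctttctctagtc
Lyz1, chr10:117292869-117293118, minus strand: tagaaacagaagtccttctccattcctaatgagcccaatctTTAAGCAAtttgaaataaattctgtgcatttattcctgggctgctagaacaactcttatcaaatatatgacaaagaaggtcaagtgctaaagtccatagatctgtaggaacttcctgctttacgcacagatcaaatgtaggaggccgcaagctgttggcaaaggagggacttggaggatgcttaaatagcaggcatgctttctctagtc

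The motif TTNNGNAA, searched on both strands, occurred in these 250 bases for 8 of the 8 genes with a RefSeq window; Cd177 and Retnlg also had 1 match each, and Mmp9 was not analysed here. Of all 32851 windows of the same length, 36.8% held a match. Ngp had 3 matches, among them TTGGGCAA at 11 to 4 bases before the start in the direction of the gene. TTGGGCAA also lay at 138 to 131 bases before that start on the opposite strand, printed above as TTGCCCAA. The same letters, TTGGGCAA, lay 75 to 68 bases before the start of Ltf, in the direction of the gene. Lcn2 and Mmp8 shared TTGAGCAA on the opposite strand, printed above as TTGCTCAA. These matches lay at 216 to 209 and at 19 to 12 bases before their starts. The PU.1 core GAGGAA was found in 4 of 8 windows (Cd177, Lcn2, Ltf and Mmp8), against 23.3% of all windows, and the RUNX core TGTGGT in 1 of 8 (Lyz2), against 14%. GENCODE M21 starts the longest coding transcripts of Ngp, Lcn2 and Lyz2 61, 58 and 49 bases before the RefSeq start, so by that annotation the last bases of these windows, with the match of Ngp nearest to the start and part of that of Lyz2, are transcribed. For Lcn2 the whole gene in that annotation, chr2:32384633-32388252 on the minus strand, reaches further upstream and covers the full window with its match. These short motifs match often, Lyz1 and Lyz2 are copies of each other, and a match is a stretch of letters and not evidence of binding.

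Ngp, neutrophilic granule protein of the cathelicidin-related family, led the authors' deposited table by its old mean. Its mean was 830 normalized counts in young and 36140 in old. That is a 43.5-fold difference, with a log2 fold change of 5.44 and an SE of 1.38 (adjusted p = 0.00626, per the authors' deposited table) and an interval from 6.69-fold to 283-fold. The gene (kgCluster30820) lies on the plus strand at chr9:110419747-110423012 in GENCODE M21, with 4 exons in its longest coding transcript.

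Ltf encodes lactoferrin, the iron-binding protein that defines secondary granules. In the authors' deposited table its mean went from 276 to 19916 normalized counts, second in old only to Ngp. The log2 fold change was 6.17 (SE 1.47, adjusted p = 0.00303, per the authors' deposited table), or 72.1-fold with an interval from 9.76-fold to 533-fold. Ltf (kgCluster30842; chr9:111019271-111042767, plus strand, 17 exons) starts 596 kb after the end of Ngp on the same chromosome. None of the annotated genes other than Lyz1, Lyz2 and Nup107 within 500 kb of any of the 9 genes was listed, so Ngp and Ltf had no listed gene within that distance.

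Lcn2 encodes lipocalin 2, which binds bacterial siderophores. It had means of 65.9 in young and 4918 in old, a log2 change of 6.22 (SE 1.50, adjusted p = 0.00339, per the authors' deposited table). Cd177, a surface glycoprotein of neutrophils that is also held in secondary granules, had means of 36.2 and 2621 and a log2 change of 6.18 (SE 1.53, adjusted p = 0.00491, per the authors' deposited table). Mmp8, neutrophil collagenase, stood at a much lower level, with means of 7.85 and 590 and a log2 change of 6.23 (SE 1.55, adjusted p = 0.00494, per the authors' deposited table). The deposited means give folds of 74.6, 72.5 and 75.2 for Lcn2, Cd177 and Mmp8. Their likeness depends on the low young mean of Mmp8, since with a pseudocount of 10 the log2 ratios were 6.02, 5.83 and 5.07. The 3 genes lie at chr2:32384633-32388252 (Lcn2, kgCluster15304, minus strand, 6 exons), chr7:24743983-24760311 (Cd177, kgCluster25349, minus strand, 17 exons) and chr9:7558456-7568485 (Mmp8, kgCluster29149, plus strand, 10 exons). Of the 50-base stretches of the Cd177 transcript, 5.76% also occur in transcripts of other annotated genes, mainly Gm4763, so a small part of its reads may be shared.

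Mmp9, or gelatinase B, is the marker enzyme of tertiary granules. Its mean was 2.27 in young and 164 in old, with a log2 change of 6.19 (SE 1.68, adjusted p = 0.0129), the widest SE and the largest adjusted p that the authors' deposited table gives for the 9. At the young level, few reads can lie behind the mean, and the fold of 72.3 has an interval from 7.39-fold to 719-fold. The mean over the 14 samples of the authors' analysis was 274 normalized counts for Mmp9, above both group means, so some libraries that are not behind these group means carried more of it. For the other 8 genes the 14-sample mean lay between the group means. Mmp9 (kgCluster17426) lies at chr2:164940780-164955850 on the plus strand, with 13 exons.

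Retnlg, resistin-like gamma, a secreted protein made by maturing neutrophils and not assigned here to a granule class, had the largest deposited fold of the 9, a rank that rests on a low young mean. It went from 4.91 to 648 normalized counts, 132-fold, with a log2 change of 7.05 (SE 1.56, adjusted p = 9.05e-04, per the authors' deposited table). With a pseudocount of 10 on both means its log2 ratio was 5.46, below those of Ltf (6.12), Lcn2 (6.02) and Cd177 (5.83). Only 2 listed gene models had a larger deposited log2 fold change. Its interval reached from 16.0-fold to 1094-fold. The gene (kgCluster11040) is a short one of 4 exons at chr16:48872621-48874496, plus strand.

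**Figure D1:**
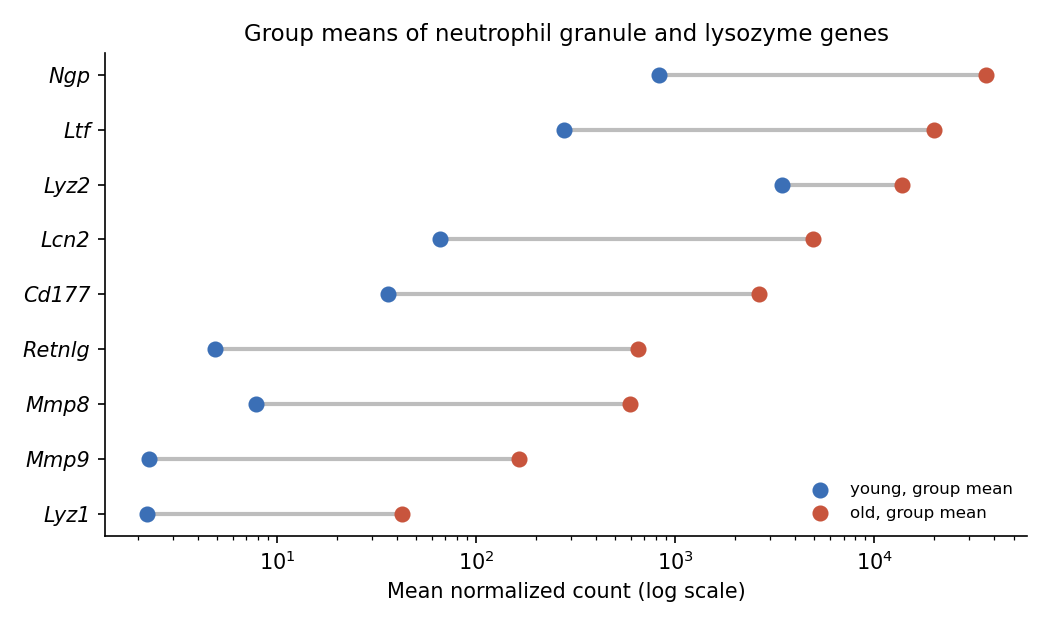
Group means of the 9 genes in young (blue) and old (red) as mean normalized counts on a log axis, ordered by the old mean; a grey line joins the means of a gene and no error is drawn, since the means carry no spread. The old mean lies to the right of the young mean for all 9 genes, from 42.4 for Lyz1 to 36140 for Ngp, and Lyz2 has the shortest line.

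The lysozyme genes stood far apart from each other in level. Lyz2, the lysozyme of macrophages and neutrophils, already had the highest young mean of the 9, per kilobase as well, with a mean of 3428 normalized counts, and reached 13811 in old. This is a 4.03-fold rise, a log2 change of 2.01 (SE 0.53, adjusted p = 0.00903, per the authors' deposited table), the smallest change of the 9 and the narrowest SE. Lyz1, the lysozyme of intestinal Paneth cells, had means of 2.23 and 42.4 and a log2 change of 4.25 (SE 1.06, adjusted p = 0.00538, per the authors' deposited table). Lyz2 made up 73.7% of the summed young means of the 9 genes, and Ngp, Ltf and Lyz2 together 88.6% of the summed old means.

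Lyz1 and Lyz2 are neighbouring copies on the minus strand of chromosome 10 (Lyz2, kgCluster3056, chr10:117277331-117282321; Lyz1, kgCluster3057, chr10:117287797-117292868; 4 exons each), 5.47 kb apart. Their transcripts were identical at 96.0% of aligned bases, and 16.1% of the 50-base stretches of the Lyz1 transcript occur in that of Lyz2. With Lyz2 at 326 times the Lyz1 mean in old and 1539 times in young, reads from Lyz2 assigned to Lyz1 could make up part of the Lyz1 value, and no source used here says how such reads were treated. The Lyz1 values are therefore uncertain. The 250 bases before the 2 starts, shown above, matched at 79.4% of alignment columns, against 39.0% to 49.3% for the other 27 pairs among the 8 windows. The motif matches of the pair lay at different places: TTGGGAAA 55 to 48 bases before the start of Lyz2, and TTAAGCAA 209 to 202 bases before that of Lyz1.

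**Figure D2:**
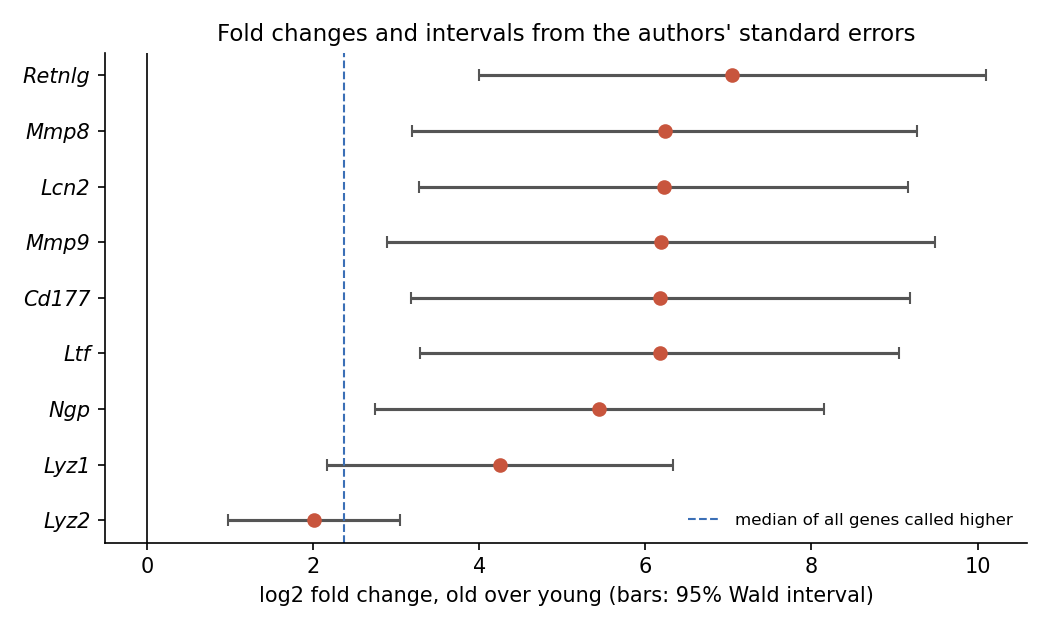
The log2 fold change (old over young) of each of the 9 genes on the horizontal axis, with bars for the 95% Wald interval from the authors' SE and a dashed line at 2.37, the median over all gene models called higher. Retnlg has the highest point at 7.05 and Lyz2 the lowest at 2.01, and 7 intervals lie wholly above the dashed line, all but those of Lyz1 and Lyz2.

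The median log2 fold change of the 9 genes was 6.18, beside 2.37 over the 302 gene models that the authors' deposited table calls higher. The 302 include the 9 genes, which were chosen with the results known, so the 2 medians are a description. The 5 secondary granule genes stayed within a log2 change of 5.44 to 6.23. The interval of Lyz2, which ended at 3.04 on the log2 scale, lay below the whole interval of Ltf, Lcn2, Cd177, Mmp8 and Retnlg. It overlapped those of Ngp, Mmp9 and Lyz1. All values come from the same libraries and no covariance between genes was used here, so the differences between genes were not tested.

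Levels of different genes were compared per kilobase of the longest coding transcript. In young, the order of mean normalized counts per kilobase was Lyz2 (2605), Ngp (679), Ltf (101), Lcn2 (72.1), Cd177 (13.3), Retnlg (8.28), Mmp8 (3.24), Lyz1 (1.76) and Mmp9 (0.716). In old, Ngp came first at 29574 per kilobase, followed by Lyz2 (10494), Ltf (7261), Lcn2 (5375), Retnlg (1093), Cd177 (966), Mmp8 (243), Mmp9 (51.8) and Lyz1 (33.6). Ngp thus passed Lyz2, Retnlg passed Cd177 and Mmp9 passed Lyz1, while the rest kept their order. The young order of Mmp9 and Lyz1 rests on means of only 2.27 and 2.23 normalized counts, and the Lyz1 values may hold Lyz2 reads. The steps between Lyz2, Ltf and Lcn2 in old were 1.45-fold and 1.35-fold per kilobase, and that between Retnlg and Cd177 was 1.13-fold. The SEs belong to the change between groups, so no error of these steps is known and these orders are uncertain. Mmp8 stood 4.52-fold above Mmp9 in young and 4.70-fold above it in old per kilobase.

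By granule class, the called secondary and tertiary genes rose by 11.4-fold to 75.2-fold and the 2 listed primary genes by 3.79-fold and 2.09-fold. The primary granule list had 9 genes, of which 2 were called higher and none lower. The other 7, among them Mpo and Elane, have no value in the authors' deposited table. This count and those of the next classes stand beside the 2.56% of all tested gene models called higher. Some list genes may not have been tested. Prtn3, the serine protease proteinase 3, went from 395 to 1498 normalized counts (log2 fold change 1.92, SE 0.46, adjusted p = 0.00304, per the authors' deposited table). Ctsc, the protease that activates granule serine proteases, went from 649 to 1359 (1.07, SE 0.28, adjusted p = 0.0101, per the authors' deposited table). Their summed mean rose 2.73-fold, from 1044 to 2856.

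In the secondary list 10 of 16 genes were called higher and none lower, with folds from 32.8 to 75.2 and a median of 6.04 on the log2 scale, per the authors' deposited table. Beside Ngp, Ltf, Lcn2, Cd177 and Mmp8 these were Pglyrp1, Camp, Chil3, Hp and Chil1, or 5 of the 11 other genes of the list. Pglyrp1, a peptidoglycan recognition protein, had the smallest adjusted p of the class (15.6 to 1019 normalized counts, log2 fold change 6.03, SE 1.21, adjusted p = 1.62e-04, per the authors' deposited table). Camp, the cathelicidin antimicrobial peptide precursor, rose from 102 to 6129 (5.91, SE 1.41, adjusted p = 0.00304, per the authors' deposited table). Chil3, a chitinase-like lectin, rose from 102 to 6766 (6.04, SE 1.50, adjusted p = 0.00476, per the authors' deposited table). The summed mean of the 10 genes went from 1474 to 79361, a 53.9-fold rise, and that of the 5 genes followed here from 1216 to 64185, 52.8-fold.

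The tertiary list had 3 of 7 genes called higher and none lower in the authors' deposited table, or 2 of 6 without Mmp9. Slc11a1, a metal transporter of phagocyte granules and phagosomes, went from 5.21 to 59.5 normalized counts (log2 fold change 3.51, SE 0.73, adjusted p = 3.40e-04, per the authors' deposited table). Fcnb, ficolin B, rose from 25.6 to 1327 (5.70, SE 1.55, adjusted p = 0.0129, per the authors' deposited table), and Mmp9 was the remaining call. Mmp25 was listed at 0.362 and 8.77 without passing (4.22, SE 1.52, adjusted p = 0.0891, per the authors' deposited table). With 1 of the 9 genes in this class and 2 listed primary genes, the class comparison rests on few genes and on those that entered the table. The upper end of the Prtn3 interval, 2.82 on the log2 scale, lay above the lower end for Ngp, 2.74, and no difference between classes was tested.

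**Figure D3:**
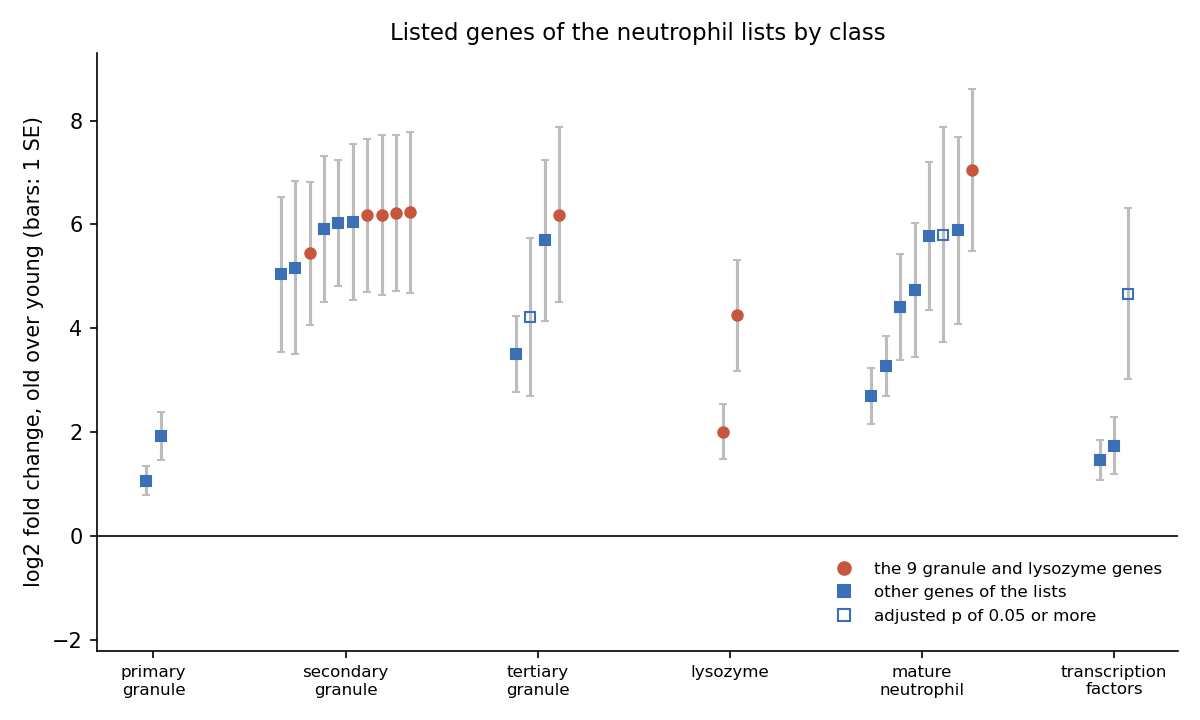
The log2 fold change (old over young) of the listed genes in 6 lists, with bars of 1 SE; red circles are 8 granule and lysozyme genes and Retnlg, blue squares the other genes of the lists, and open squares genes with an adjusted p of 0.05 or more. All points lie above 0, the 10 secondary granule genes between 5.04 and 6.23, and the 2 primary granule genes at 1.07 and 1.92.

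Of the 76 other genes in the neutrophil lists, 17 were called higher and none lower, or 22.4%, per the authors' deposited table. Of all tested gene models, 2.56% were called higher. The median of the 17 calls was 4.74 on the log2 scale. These lists and the marker lists below were chosen with earlier results of these data known. The 22.4% also counts list genes that may not have been tested, so the shares are a description and no test. The mature neutrophil list had 7 of 29 genes called, Retnlg among them. Csf3r, the G-CSF receptor, went from 8.72 to 85.8 normalized counts (log2 fold change 3.28, SE 0.58, adjusted p = 7.78e-06, per the authors' deposited table), and Padi4, which citrullinates histones in neutrophils, from 18.6 to 120 (2.70, SE 0.54, adjusted p = 1.53e-04). Anxa1, the pro-resolving protein annexin A1, went from 37.2 to 795 (4.42, SE 1.02, adjusted p = 0.00190, per the authors' deposited table). Spi1, which encodes PU.1, rose from 458 to 1267 (1.47, SE 0.39, adjusted p = 0.0107) and Cebpd from 22.5 to 75.2 (1.74, SE 0.55, adjusted p = 0.0436, per the authors' deposited table). Cebpe, the C/EBP factor of late granule genes, was listed at 15.6 and 395 without passing (4.66, SE 1.65, adjusted p = 0.0823, per the authors' deposited table). None of the 8 genes of the secretory vesicle list and none of the 6 NADPH oxidase genes was listed, so they have no value here.

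Markers of other cell types moved in the same libraries, and their counts stand beside the 2.56% of all tested gene models that were called higher. Of 12 monocyte and macrophage markers, 5 were listed and 3 called higher (Cd68, Csf1r and Ctss), with a summed listed mean of 123 in young and 1804 in old. Of 9 eosinophil, basophil and mast cell markers, 5 were listed and 4 called higher, with sums of 28.1 and 1453. The erythroid list had 2 of 9 called higher (Hbb-bs and Hbb-bt, sums of 977 and 6431) and the lymphoid and plasma cell list 2 of 11 (Klrb1c and Cd4, sums of 3.26 and 42.4). Of 12 megakaryocyte markers only Selp was listed, with means of 496 (young) and 2358 (old), and it was called higher, so the labelled cell type could not be checked against its other markers. No marker of these lists was called lower, and among the listed markers only Prg3 was listed at 0, in young. The part of these cell types in the values of the 9 genes was not tested.

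The SEs of the 9 genes are set here beside those of other listed gene models. The table's limit on adjusted p lets a gene with a small fold change enter only with a small SE, so low SEs among the others, the lower calls above all, partly follow from that limit. Of the 9 genes, 8 had an SE over 1, all but Lyz2, against 61 of 302 higher calls (20.2%) and 0 of 185 lower calls, per the authors' deposited table. The level of Cd177, the fifth highest old mean of the 9 at 2621, was reached by 105 listed gene models, a limit chosen after the values were seen. Among the 100 of these that are not among the 9, the median SE was 0.22 and 4 had an SE over 1. Those 4 were Camp, Chil3, S100a8 and S100a9, which all belong to the neutrophil lists. Below that level, an SE over 1 was also seen outside these lists. Prg2 had an SE of 1.55 at an old mean of 1283 and Clca2 one of 1.18 at 1308, while H2-Aa had one of 0.65 at 1008. The 5 most abundant of the 9 had a median SE of 1.47. Without values per library it cannot be said which libraries carried the high counts. It is also not known whether libraries outside the young and old groups entered these SEs.

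**Figure D4:**
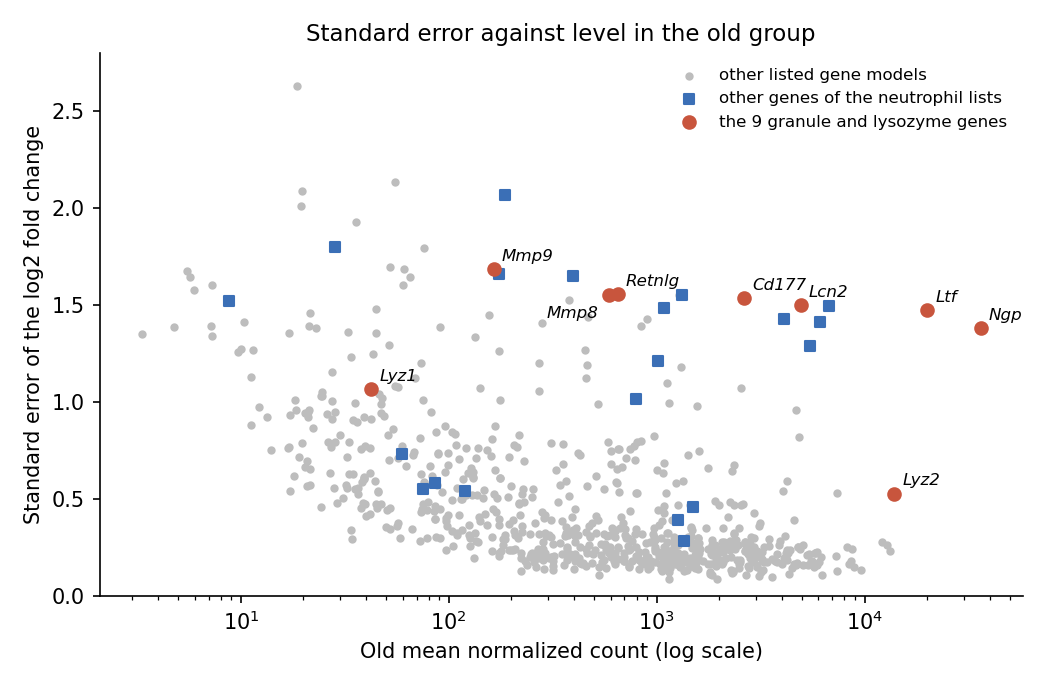
The SE of the log2 fold change against the old mean normalized count (log axis) for the listed gene models with an old mean above 0, with the 9 granule and lysozyme genes in red, the other genes of the neutrophil lists in blue and the rest in grey. At old means of at least 2621 the grey points lie below an SE of 1, while Ngp, Ltf, Lcn2 and Cd177 lie between 1.38 and 1.53 and Lyz2 lies at 0.53.

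Among the 473 other called gene models with a young mean above 0, the 5 nearest to the centre of the 9 genes were Fcnb, Prg2, Clca2, H2-Aa and S100a9. Distance was measured in log2 young mean and log2 fold change around the medians of the 9 genes, 5.18 and 6.18. Fcnb, the nearest, lay at a distance of 0.694. Prg2, an eosinophil granule gene, lay at 0.733, with means of 24.3 and 1283 normalized counts (log2 fold change 5.72, SE 1.55, per the authors' deposited table). Clca2 had means of 33.7 and 1308 with an SE of 1.18 in the authors' deposited table. H2-Aa, an MHC class II gene, had means of 29.3 and 1008 with a narrower SE of 0.65. The likeness is over 2 group means and says nothing of values per library.

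At an adjusted p under 0.01, 8 of the 9 genes remained called, all but Mmp9, against 139 of 11778 gene models, or 1.18%, called higher. Summed over the 9 genes, the mean went from 4653 normalized counts in young to 78851 in old, 16.9-fold. That is 0.408% of the sum over all listed gene models in young and 8.15% in old in the authors' deposited table. The sum over the listed gene models itself went from 1139115 to 967921. They were selected by adjusted p, so these are not shares of all RNA.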

How the data were processed

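RNA of sorted cells was sequenced from 3 young and 4 old libraries. The submitters' processing notes name Bowtie2, STAR, DESeq and the build mm10 without saying what each was used for; counting method, strand setting and annotation are not stated there. The authors deposited 1 table, whose columns hold, per the file headers, mean normalized counts (a scaled signal) of the young and old groups and of 14 samples, the log2 fold change with its SE, a Wald score, and each p-value before and after adjustment. The column of the old group matches no single title, and the 14-sample mean allows at most 4.08 libraries behind it. The 14 samples include libraries outside this series. The log2 fold change of each of the 9 genes lay within 0.0102 of the log2 ratio of its deposited means. Depth per library is unknown, so no counting interval was computed.

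The 11778 tested gene models were recovered from the deposited p-values, a step tested on simulated data. No model was refitted, so the planned count tests could not be run. Wald intervals are the fold change with 1.96 times the SE on each side. Transcript lengths and positions came from GENCODE M21 (GRCm38), promoter windows from RefSeq (GRCm38.p6; 8 of 9 genes matched), and shared sequence was counted in stretches of 50 bases and by global alignment (Biopython 1.88). The genes and lists were chosen with earlier results of these data known. Named genes are the 9 and, from each list, up to 3 others with the smallest adjusted p, plus the 5 nearest in pattern; S100a8, Hp, Chil1, Mpo, Elane, Gm4763, Nup107 and the named markers of other cell types were chosen after their values were seen. List symbols were matched to the table also by RefSeq synonyms.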

Additional observations from a re-analysis of the deposited data

Results flagged for a closer look

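The mean of Mmp9 over the 14 samples of the authors' analysis was 274 normalized counts, a column that enters no comparison, and it lay above the young mean of 2.27 and the old mean of 164. Of the 769 listed gene models, 314 had a 14-sample mean above both group means.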

How the results depend on the processing

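Of 42 alternatives, 32 left the result on its side of the threshold or within its error. None reversed a direction, but none of these settings could turn a higher old mean into a lower one. Leaving out gene models with an SE over 1 left 1 of the 9 calls, Lyz2, because the other 8 have wider SEs. At an adjusted p limit of 0.01, 17 of the 26 calls over all neutrophil lists were left. With a pseudocount of 10 on the deposited means, the log2 ratios of the 4 genes with young means under 10 were 5.46 for Retnlg, 5.07 for Mmp8, 3.83 for Mmp9 and 2.10 for Lyz1, a shift beyond the SE for all but Mmp8. Counting the lysozymes with the secondary granule genes moved the log2 ratio of the class sums to 4.07 for the 5 genes followed here and to 4.25 for all 10 listed, since Lyz2 holds most of the young sum. Without Lyz2, the lysozyme class had a log2 ratio of 4.25, and without Prtn3 the primary class one of 1.07. The RUNX motif was found in 2 whole windows of 300 bases and in 1 when restricted to the 250 bases before the start. All fold changes were recentred by -0.69, the median of the 337 lower listed gene models. The calls went from 302 higher and 185 lower to 437 higher and 0 lower, and all 9 genes stayed called. Since this shift raises every fold change, genes already called higher could not lose their calls. Only listed gene models could be recounted, so the new counts are no check of the normalization. Omitting single libraries, each kind of old title apart, and other count models or normalizations could not be run on group means. No paired analysis was possible because the columns carry no values per replicate number.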

Other observations

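Several other genes of the fixed lists also had a 14-sample mean above both group means, as had 314 of all 769 listed gene models. In the authors' deposited table Padi4 stood at 694 normalized counts over the 14 samples, against 18.6 in young and 120 in old. Csf3r stood at 468, against 8.72 and 85.8, and Prtn3 at 3218, against 395 and 1498, in the same table. The libraries of the 14 that lie outside the young and old groups were not analysed here.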
